A study of Mesocricetus auratus with 14 samples.

Results

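Of 14 RNA-seq libraries made from liver of Syrian golden hamsters (Mesocricetus auratus), 3 held more than 20000000 gene counts, and the genes and functions in which these 3 differed from the other 11 are described here. The 3 deeper libraries are control replicates 6 and 7 and DC371739 replicate 7; the other 11 are control replicates 1 to 5 and DC371739 replicates 1 to 6. The 3 were chosen by their summed counts, with a limit set after these libraries had been seen to stand apart in depth and in mitochondrial share. The lowest total inside the limit was 22152239 and the highest outside it 16710097.

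All samples carry the label of a high-fat diet, so that the controls share it with the treated group, and the series sets 7 control samples beside 7 samples given DC371739, a code-named compound. The sources used here do not give dose, route, duration, age, sex, strain or the hour of collection. Nothing in the labels states that the samples are from different animals, and the p-values below reflect no more than the spread among these libraries. For all samples both a TruSeq and a NEBNext library kit are named, without any batch or date. What set the deeper libraries apart in the laboratory therefore cannot be told apart from differences between the livers themselves.

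The mitochondrial genome encodes a small set of subunits of the respiratory chain and of ATP synthase, and all other parts of that chain are made from nuclear genes and imported. In hepatocytes, mitochondria oxidise fatty acids, make ketone bodies and supply the urea cycle, while the cytosol synthesises fatty acids under the control of the transcription factors ChREBP and SREBP-1c. In sequencing of bulk liver, fewer cells of a type and less RNA per cell cannot be told apart.

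The mitochondrial features took 12.6% to 14.4% of the counts in the deeper libraries and 7.23% to 9.33% in the other 11. With these features left out, the totals were 19368489 to 20493850 and 12569814 to 15417194, which still did not overlap. The 10 most abundant genes of each library, mitochondrial ones included, took 27.5% to 27.6% of its counts against 22.99% to 25.03%. This share is thus not separate from the mitochondrial share. Genes with at least 10 counts numbered 12368 to 12604 against 11762 to 12432, and after every library was thinned to 13672589 counts they numbered 11834 to 11956 against 11762 to 12208. At equal totals the deeper libraries thus lay within the range of the others, although their nuclear counts were then fewer, given their higher mitochondrial share. The root mean square difference in log2 CPM (counts per 1000000 of the scaled library total) was 0.43 to 0.45 between any pair of the deeper libraries, 0.63 to 0.83 between a deeper and another library, and 0.38 to 0.71 between any pair of the other 11. The hepatocyte marker Alb, the gene of serum albumin, stood at 97608 to 120796 CPM in the deeper libraries and 88302 to 111159 CPM in the others, and all 14 thus carried this defining transcript of hepatocytes.

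Within the mitochondrial genome, the increase was uneven. The following values are a description with no test, because the mitochondrial share was known when the libraries were singled out. The 13 protein genes were named from RefSeq where start and end were identical to those in the count table, whose coordinates are used below and whose genome build the labels leave unnamed. mt-COX1, the catalytic subunit of cytochrome c oxidase (MT, 5310 to 6854), measured 48143, 48122 and 50071 CPM in the deeper libraries, in the order control replicate 6, control replicate 7, DC371739 replicate 7 that is kept below. In the other 11 libraries its lowest, median and highest values were 22601, 24274 and 27865 CPM. The groups did not overlap, and the log2 difference was 0.97.

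mt-ND5, a proton-pumping subunit of complex I (MT, 11723 to 13543), stood at 8274, 10912 and 11913 CPM against 3091, 4019 and 4766 CPM (lowest, median, highest), a log2 difference of 1.47. mt-ND4L, another complex I subunit (MT, 9860 to 10156), stood at 1187, 1558 and 1561 CPM against 333, 569 and 759 CPM, a difference of 1.53, the highest of the 13. Both lay wholly above the other libraries. mt-ND4 (1.12), mt-CYTB of complex III (1.02), mt-COX2 (0.86), mt-COX3 (0.85), mt-ATP6 of ATP synthase (0.78), mt-ND1 (0.77), mt-ND6 (0.61) and mt-ND2 (0.42) also had all 3 deeper libraries above the other 11. mt-ND6 is the one protein gene that the mitochondrial genome carries on its light strand.

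A pair of short genes did not take part. mt-ATP8 (MT, 7748 to 7951) stood at 329, 349 and 428 CPM against 394, 420 and 544 CPM, a log2 difference of -0.25. mt-ND3 (MT, 9442 to 9789) stood at 671, 814 and 791 CPM against 664, 795 and 1023 CPM, a difference of -0.13. Their ranges overlapped those of the other libraries, unlike the ranges of their neighbours. mt-ATP8 shares 43 bases with mt-ATP6, and how reads that touch both were counted is unknown here.

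Ratios between mitochondrial genes are free of library scaling. mt-ATP8 over mt-ATP6 was 0.0233 to 0.0284 in the deeper libraries and 0.0436 to 0.0622 in the others, and mt-ND3 over mt-COX3 was 0.0549 to 0.0668 against 0.0957 to 0.146. In the opposite direction, mt-ND5 over mt-ND2 was 0.635 to 0.834 against 0.258 to 0.502. mt-ND6 over mt-CYTB was 0.217 to 0.235 against 0.264 to 0.326. These 4 ratios did not overlap between the groups, whereas mt-ND4L over mt-ND4 did (0.129 to 0.156 against 0.0707 to 0.154). The deeper libraries thus differed in the make-up of their mitochondrial counts as well as in the amount. The unnamed features of 955 and 1562 bases near the start of the mitochondrial sequence had log2 differences of 0.19 and 0.12, with overlapping ranges.

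**Figure D1:**
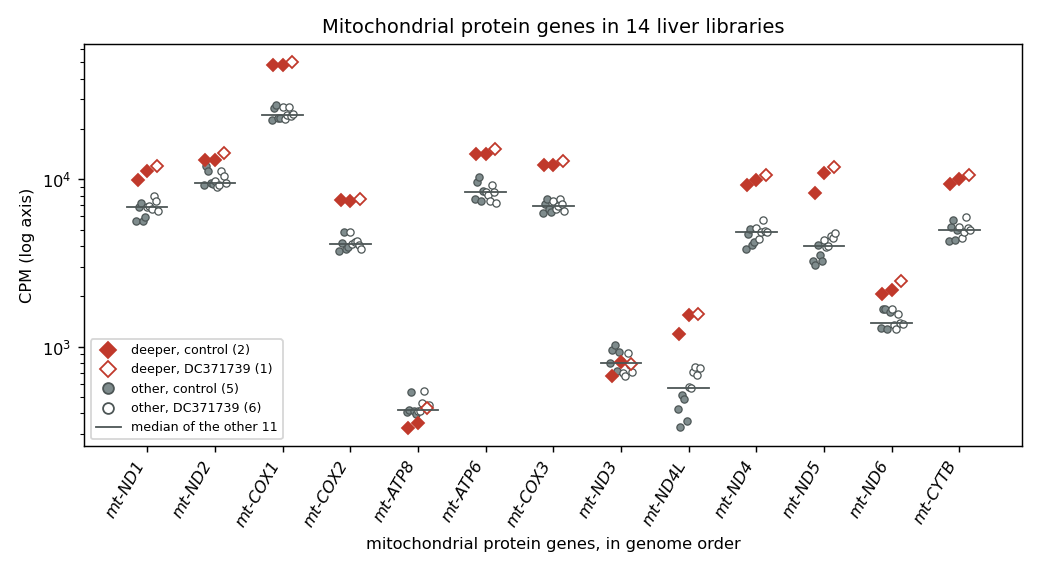
CPM on a log axis of the 13 mitochondrial protein genes in 14 libraries, in genome order. Diamonds are the 3 deeper libraries and circles the other 11, filled for control and open for DC371739, and bars are the medians of the other 11. Diamonds lie above all circles for 11 genes and overlap them for mt-ATP8 and mt-ND3.

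Across the nuclear and mitochondrial genes together, a large part of the liver transcriptome differed. In a fit of all 14 libraries with a term for treatment, edgeR's quasi-likelihood test called 5703 of 12703 genes at an adjusted p under 0.05, which is 44.9%. Of these 2781 (21.9%) were higher and 2922 (23%) lower in the deeper libraries. Medians of the log2 difference were 0.55 among the higher and -0.61 among the lower genes, and an absolute difference over 1 was reached by 481 and 357. All 3 deeper libraries lay above the other 11 for 1717 genes (13.5%) and below them for 1741 (13.7%). With library totals alone as the scale, the median of all genes shifted by -0.13 and the split became 1831 higher and 3808 lower, so the directions below are relative to the typical gene. The libraries had been proposed for comparison after they were seen to stand apart, so these calls describe how the 3 differ and are no independent evidence that they do.

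The largest rises among genes with a symbol were led by Pdk4, the kinase that switches off pyruvate dehydrogenase (KB708266.1, 2036118 to 2048025). It stood at 85.2, 24.4 and 31.0 CPM against 1.34, 5.55 and 21.6 CPM, a log2 difference of 3.20 (SE 0.63, adjusted p = 0.00144). The lowest deeper library lay only slightly above the highest other one, DC371739 replicate 3. Pik3c2a, a class II phosphoinositide 3-kinase (KB708183.1, 2632120 to 2719229), was less variable, at 13.8, 16.6 and 13.0 CPM against 1.16, 2.18 and 2.96 CPM. Its log2 difference was 2.90 (SE 0.19, adjusted p = 6.71e-08).

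A further 9 of these rises were Lmbrd2 (2.65), Phip, which binds the insulin receptor substrate (2.55), the DNA damage kinase Atm (2.43), Crebrf, a regulator of CREB3 (2.42), N4bp2 (2.39), the chromatin remodeller Atrx (2.30), Dmxl1 (2.24), coagulation factor F8 (2.21) and the zinc finger gene Zfp292 (2.14). For all 9 the 3 deeper libraries lay above the other 11. Atrx, for example, stood at 26.7, 34.9 and 25.2 CPM against 3.84, 5.55 and 8.31 CPM. Adjusted p for these 9 ran from 4.52e-08 for Zfp292 to 1.43e-05 for F8. Without a symbol, ENSMAUG00000001825 (KB708216.1, 1081813 to 1098678) rose by 2.65 (SE 0.57, adjusted p = 0.00274), from a median of 15.7 CPM to 146 to 188 CPM.

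Mlxipl, which encodes ChREBP, the activator of lipogenic genes in response to carbohydrate, was the most abundant of the 12 largest falls (KB708225.1, 5317341 to 5348349). It stood at 214, 184 and 199 CPM in the deeper libraries against 431, 576 and 777 CPM in the others. The log2 difference was -1.63 (SE 0.12, adjusted p = 9.15e-08), and the highest deeper value was below the lowest of the other 11. Igsf9, an immunoglobulin-family adhesion gene, fell most, from a median of 11.8 CPM to 4, 3.20 and 2.33 CPM (-2.03, SE 0.21, adjusted p = 1.76e-06).

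Among the further falls were the secreted kinase Pkdcc (-1.71), the heparan sulphate glycosyltransferase Extl1 (-1.63), Dtx3 (-1.62), Nynrin (-1.60), Tmem25 (-1.60), Fgf11 (-1.56), the inflammasome receptor Nlrp6 (-1.56) and Mir5125 (-1.55), each with the deeper libraries below all others. Dnm1, the endocytic GTPase dynamin (-1.72, adjusted p = 0.0341), no longer passed without control replicate 6 (adjusted p = 0.0967), control replicate 7 (0.0869) or DC371739 replicate 7 (0.144). It did not pass with limma-voom (0.0673) or without the filter on low counts (0.0624) either. Npas4, an activity-induced transcription factor (-1.59, adjusted p = 0.0111), overlapped between the groups, and its adjusted p was 0.0601 with control replicate 6 left out and 0.0877 with control replicate 7 left out. It was not called without the treatment term (0.0849). ENSMAUG00000008600 (KB708178.1, 12432320 to 12548292), a gene without a symbol, fell from a median of 626 CPM to 157 to 243 CPM (-1.89, SE 0.17, adjusted p = 4.50e-07).

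**Figure D2:**
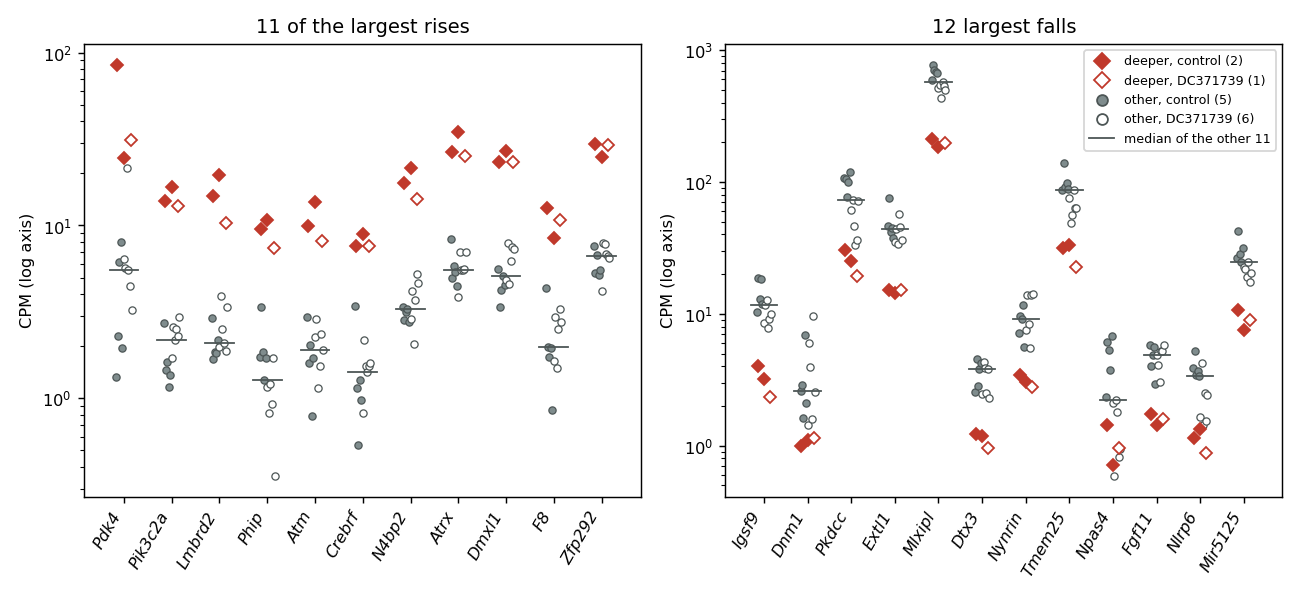
CPM on log axes of 11 of the largest rises (left) and the 12 largest falls (right) in 14 libraries. Diamonds are the 3 deeper libraries, circles the other 11 (filled for control, open for DC371739), and bars the medians of the other 11. The diamonds lie clear of the circles for each gene except Npas4, and by a narrow margin for Pdk4.

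The same difference could be read from the control samples alone and set beside the treated ones. With 2 deeper and 5 other control libraries, edgeR's quasi-likelihood test called 4860 of 12542 genes (38.7%), 2425 higher (19.3%) and 2435 lower (19.4%). Without control replicate 6 it called 2881 and without control replicate 7 it called 3090. With library totals alone the split was 1428 higher and 3288 lower. The treated side has 1 deeper library and allows no test of its own. It was described by whether DC371739 replicate 7 lay outside the range of the other 6 treated libraries.

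Among 11396 genes that could be placed, DC371739 replicate 7 lay above all 6 for 28.7% and below all 6 for 30.8%. Of the 2280 genes that were higher in the deeper controls and could be placed, 1623 (71.2%) lay above all 6 and 58 (2.54%) below. Of the 2356 lower genes, 1798 (76.3%) lay below and 34 (1.44%) above. Those 1623 and 1798 genes, 3421 in all, came to 2164 when the controls were read without control replicate 6. The libraries of each side are separate, but all 3 deeper libraries were singled out together after they were seen to stand apart, so these shares are a description and no independent support.

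**Figure D3:**
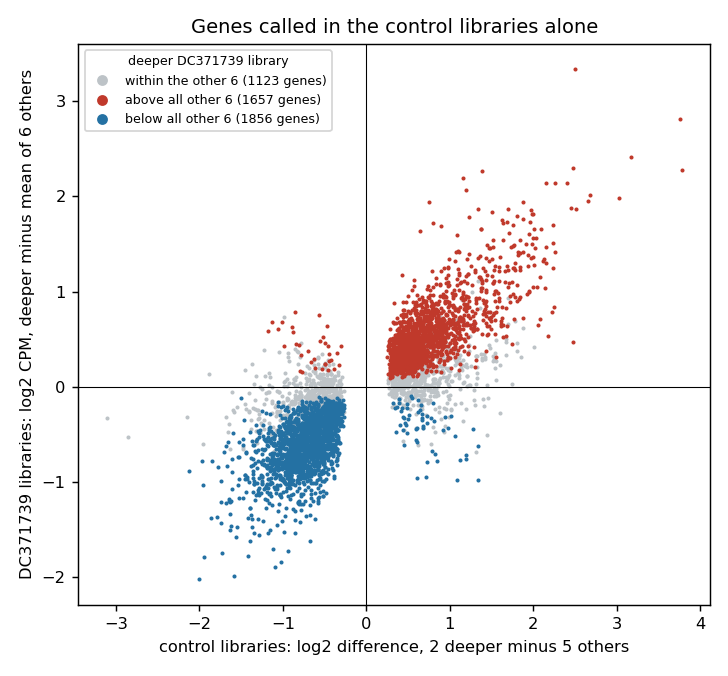
Each point is one of the genes called in the control libraries alone, with the log2 difference of the 2 deeper from the 5 other controls on the x axis and that of DC371739 replicate 7 from the mean of the other 6 treated libraries on the y axis (log2 CPM). Red and blue mark genes where that library lay above or below all 6, and grey the rest; most red points are right of 0 and most blue points left of it.

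In a fit of all 14 libraries that assumes the lone deeper treated library to vary like those of the other groups, a class difference that itself differed between treated and control libraries was called for 2 of 13215 genes (0.0151%), with 1586 at an unadjusted p under 0.05 and 97 called by DESeq2. Klhdc4, a kelch-domain gene, stood at 4.08 CPM in DC371739 replicate 7 against 16.6 to 31.8 CPM in the other treated libraries, while control replicates 6 and 7 were at 28.8 and 28.7 CPM and the other controls at 28.8 to 35.9 CPM. Polr2i, a subunit of RNA polymerase II, was lower in the deeper controls (15.9 and 16.5 CPM against 26.2 to 36.1 CPM) and higher in DC371739 replicate 7 (28.5 CPM against 15.4 to 21.6 CPM). The differences between the sides were -2.61 (SE 0.34, adjusted p = 0.0107) and 1.45 (SE 0.22, adjusted p = 0.0253). Both rest on 1 treated library, and neither was called without control replicate 6.

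Nuclear genes of the respiratory chain had smaller differences than most mitochondrial genes. Of 55 subunits tested, 15 were higher (27.3%, near the 21.9% of all genes), 6 lower (10.9%) and 34 not called, with a median log2 difference of 0.12 against -0.0047 over all genes. Atp5c1, a subunit of the ATP synthase core, stood at 336, 316 and 341 CPM against 185, 220 and 244 CPM (0.56, SE 0.08, adjusted p = 3.01e-05). Uqcrc2 of complex III (0.48) and Sdhd of complex II (0.49) also lay wholly above, and Atp5d, another ATP synthase subunit, wholly below (-0.71). The count of lower subunits was 2 without control replicate 6 and 1 without control replicate 7, and with library totals alone the counts were 8 higher and 13 lower.

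Genes that maintain and express the mitochondrial genome went both ways, with a median of -0.03. Of 25 genes 8 were higher (32%, against 21.9% of all genes) and 6 lower (24%, near the 23% of all genes). Polrmt, the mitochondrial RNA polymerase, stood at 15.8, 17.2 and 15.7 CPM against 25.6, 30.9 and 35.4 CPM (-0.93, SE 0.10, adjusted p = 2.12e-06). Lrpprc, which stabilises mitochondrial mRNA, stood at 171, 183 and 173 CPM against 109, 117 and 128.3 CPM (0.60, SE 0.06, adjusted p = 2.55e-06). The polymerase was thus lower and the mRNA-stabilising factor higher in every deeper library. The protease Lonp1 (-0.73) and the mitochondrial RNA-binding Tbrg4 (-0.46) fell. Ppargc1a, the coactivator of mitochondrial biogenesis, rose by 1.35 (SE 0.34, adjusted p = 0.00503), with overlapping ranges, and was not called without the treatment term. With library totals alone the list had 6 higher and 8 lower genes.

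Mitochondrial ribosomal proteins showed shares close to those of all genes, with 15 of 66 higher (22.7%) and 12 lower (18.2%). Without DC371739 replicate 7 the higher ones numbered 9, and with library totals alone 9 were higher and 19 lower. Mrpl16 (0.53) and Mrps31 (0.48) lay wholly above and Mrpl34 (-0.97) and Mrpl17 (-0.58) wholly below the other libraries.

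Fatty acid oxidation and ketogenesis had the highest share of rises among the nuclear lists with at least 10 tested genes. Of 24 genes 11 were higher and none lower, 45.8% against 21.9% of all genes, with a median of 0.24. One of the 11 is Pdk4, described above. Hadhb, of the trifunctional protein, stood at 685, 819 and 614 CPM against 351, 429 and 516 CPM (0.75, SE 0.11, adjusted p = 3.55e-05). Etfa, which passes electrons from acyl-CoA dehydrogenases (0.60), Decr1, needed for unsaturated chains (0.57), Acaa2, the last step of the spiral (0.51), and Acadm, the medium-chain dehydrogenase (0.32), were also above all other libraries. Acadm did not pass with library totals alone (0.19, adjusted p = 0.0514). Under that scaling the list had 8 higher and 5 lower genes.

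In fatty acid and triglyceride synthesis 6 of 20 genes were lower (30%, against 23% of all genes) and 1 higher, with a median of -0.40. Leaving out each library in turn gave 5 to 7 lower and 0 to 2 higher genes. Besides Mlxipl, Srebf1, which encodes SREBP-1, stood at 312, 297 and 294 CPM against 355, 459 and 596 CPM (-0.65, SE 0.11, adjusted p = 0.000209). Gpam, the first enzyme of glycerolipid synthesis, stood at 196, 277 and 125 CPM against 298, 430 and 829 CPM (-1.29, SE 0.29, adjusted p = 0.00258). Both lay wholly below the other 11. The desaturase Scd1 (-1.01, adjusted p = 0.00647) overlapped with them and did not pass without DC371739 replicate 7 (-0.69, adjusted p = 0.0735). Acly, which supplies cytosolic acetyl-CoA, had the lowest estimate of the list at -1.90 (SE 0.78) and did not pass (adjusted p = 0.0684). It was called in 5 of 26 alternative settings, and its estimate ranged from -2.21 to -0.79 over all 26.

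Lipid droplet genes had 5 of 14 higher (35.7%) and 3 lower (21.4%, close to the share of all genes). Plin3, a droplet coat protein, stood at 113, 126 and 127 CPM against 51.1, 60.95 and 78.8 CPM (1.01, SE 0.11, adjusted p = 1.92e-06), and Hsd17b13, a droplet-bound dehydrogenase, lay above too (0.57). Without control replicate 6 only 1 gene of the list was lower.

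Of 20 genes of cholesterol synthesis 4 were higher (20%) and 5 lower (25%), near the 21.9% and 23% of all genes. The lower ones numbered 3 without control replicate 6 or DC371739 replicate 7. Hmgcs1, the first committed step, rose from a median of 11.4 CPM to 16.3, 18.4 and 16.3 CPM (0.52, SE 0.10, adjusted p = 0.000403). The next enzymes of the mevalonate branch, Mvk (-0.69) and Mvd (-0.93), fell, and Mvd overlapped between groups.

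In bile acid synthesis and transport 5 of 21 were higher (23.8%, near the 21.9% of all genes) and 2 lower (9.52%, against 23%). With library totals alone 4 were higher and 6 lower. Cyp7b1, of the alternative pathway of synthesis, stood at 305, 247 and 283 CPM against 70.2, 121 and 177 CPM (1.25, SE 0.15, adjusted p = 9.21e-06). The uptake transporter Slco1b2 (0.82) and the sterol exporter Abcg5 (0.70) rose, all 3 with no overlap. Fgfr4, the receptor through which FGF19 represses bile acid synthesis, stood at 23.9, 27.9 and 20.3 CPM against 41.3, 51.0 and 60.2 CPM (-1.10, SE 0.09, adjusted p = 2.05e-07). Cyp7a1, the rate-limiting enzyme of the classical pathway, had 31.5, 46.3 and 50.6 CPM within the range of 12.6 to 66.1 CPM (0.31, SE 0.39, adjusted p = 0.56).

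Lipoprotein genes had 7 of 23 higher (30.4%, against 21.9% of all genes) and 2 lower (8.7%, against 23%). Apob, the scaffold of very low density lipoprotein, stood at 4466, 5499 and 4481 CPM against 2405, 3233 and 3629 CPM (0.74, SE 0.10, adjusted p = 2.31e-05). Abca1, which loads HDL, rose by 0.51. Lrp1, the remnant receptor, stood at 297, 391 and 297 CPM against 564, 828 and 1296 CPM (-1.21, SE 0.22, adjusted p = 0.000368). The higher genes of this list numbered 4 without control replicate 6 and with library totals alone 3 were higher and 5 lower.

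Xenobiotic metabolism had 20 of 46 genes higher (43.5%, against 21.9% of all genes) and 3 lower (6.52%, against 23%), with a median of 0.30. Cyp2c55 stood at 854, 917 and 821 CPM against 483, 542 and 626 CPM (0.66, SE 0.08, adjusted p = 8.83e-06). The sulphotransferases Sult1b1 and Sult1c2 both rose by 0.58 and the formaldehyde-clearing dehydrogenase Adh5 by 0.49, each with all deeper libraries above the other 11. Without DC371739 replicate 7 the lower genes numbered 1, over all leave-one-out fits the higher ones numbered 16 to 22, and with library totals alone 15 were higher and 5 lower.

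Proteasome subunits had a similar share, with 14 of 32 higher (43.8%) and 2 lower, or 10 and 4 with library totals alone. Psmd10 stood at 16.9, 15.3 and 15.2 CPM against 8.70, 9.998 and 11.4 CPM (0.68, SE 0.10, adjusted p = 3.98e-05), and Psmd6 (0.50) and Psma2 (0.49) lay above the other libraries as well. Cytosolic ribosomal proteins had 5 of 23 higher (21.7%, close to the 21.9% of all genes) and 1 lower (4.35%, against 23%). The higher ones numbered 8 without control replicate 7 and 1 without DC371739 replicate 7. Over all leave-one-out fits the lower ones numbered 0 to 3, and with library totals alone 1 was higher and 3 lower.

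Hepatocyte transcription factors were the list with the highest share of falls. Of 20, 10 were lower (50%, against 23% of all genes) and 1 higher, with a median of -0.40. Rxra, the partner of PPAR, LXR and FXR, stood at 324, 391 and 317 CPM against 523, 618 and 857 CPM (-0.94, SE 0.13, adjusted p = 2.09e-05). The oxysterol receptor Nr1h3 (-0.49) lay wholly below, and Foxa3 fell by 1.003 on the log2 scale with overlapping ranges. The exception was Hnf4g, a relative of Hnf4a, at 4.395, 4.63 and 5.58 CPM against 0.993, 1.60 and 2.70 CPM (1.503, SE 0.19, adjusted p = 1.22e-05). Leaving out each library in turn gave 7 to 10 lower genes, and 2 higher ones without DC371739 replicate 7.

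Extracellular matrix genes had 12 of 31 lower (38.7%, against 23% of all genes) and 3 higher (9.68%, against 21.9%), with a median of -0.42. Col18a1, a basement membrane collagen, stood at 512, 506 and 476 CPM against 677, 801 and 929 CPM (-0.68, SE 0.09, adjusted p = 1.68e-05). The membrane metalloproteinase Mmp14 (-0.85), Col4a1 (-0.84), the proteoglycan Bgn (-0.71) and Col5a1 (-0.63) lay below all other libraries. Col1a1 did so too (-1.35, adjusted p = 0.00502), and had an adjusted p of 0.0532 without DC371739 replicate 7. The 3 higher genes numbered 5 without DC371739 replicate 5.

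Markers of the cells that make matrix went both ways. Of 21 stellate and fibroblast markers 4 were higher (19%) and 3 lower (14.3%), against 21.9% and 23% of all genes. Their summed level was 489 to 546 CPM against 413 to 704 CPM. Lrat, the vitamin A-storing enzyme of stellate cells, stood at 9.43, 7.82 and 8.78 CPM against 1.99, 3.91 and 6.18 CPM (1.15, SE 0.22, adjusted p = 0.000369). Hgf, the growth factor these cells secrete, rose by 1.05, with no overlap. Dcn and Pdgfra were the other higher markers. The lower ones were Col1a1 (-1.35), Pdgfrb and Colec11, and the median of the list was -0.01. Without control replicate 1 the lower markers numbered 5.

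Other cell types were counted in the same way, and their part in the results above was not tested. Of all genes 21.9% were higher and 23% lower. Macrophage markers were higher for 3 of 21 (14.3%) and lower for 4 (19%), with sums of 1088 to 1725 against 1039 to 1733 CPM. Vsig4, a receptor of Kupffer cells, rose (1.01, no overlap) and Spi1, the myeloid transcription factor, fell (-0.96). The lower macrophage markers numbered 2 without control replicate 6 or 7, and 7 without DC371739 replicate 7. Endothelial markers were higher for 4 of 20 (20%) and lower for 7 (35%). Ptprb rose by 0.85 while Egfl7 (-0.71) and Stab1 (-0.65) fell. The endothelial sum of 288 to 431 CPM overlapped that of 335 to 475 CPM. The 4 higher ones numbered 7 without control replicate 1 and 2 without control replicate 6, and the 7 lower ones numbered 4 without control replicate 7.

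Cholangiocyte markers had 2 of 11 higher (18.2%) and 2 lower (18.2%), against 21.9% and 23% of all genes. Their summed level nevertheless lay above all other libraries, at 369 to 444 CPM against 262 to 348 CPM. Most of that sum was Anxa4, at 273, 248 and 260 CPM against 156, 171 and 187 CPM (0.60, SE 0.07, adjusted p = 4.68e-06). Without control replicate 6 the higher markers numbered 1. Lymphocyte markers had 1 of 12 higher (8.33%), Ptprc (0.64, not called without the treatment term), or 2 without DC371739 replicate 2, and none lower. Erythroid markers had 1 of 4 lower (25%), Slc25a37 (-0.57). Neutrophil markers had 1 of 3 lower, Csf3r, which was not called without control replicate 6, and of 4 genes of other tissues 1 was higher, Tnnt3 of muscle, a call that was lost when either replicate 7 was left out. None of the sex-linked genes listed was tested.

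Periportal markers had 3 of 17 higher (17.6%) and 2 lower (11.8%), against 21.9% and 23% of all genes. Pericentral ones had 4 of 13 higher (30.8%) and none lower, with sums of 19722 to 22037 against 15366 to 21216 CPM. Rgn, a pericentral calcium-binding protein, stood at 2415, 1960 and 2196 CPM against 1167, 1319 and 1890 CPM (0.60, SE 0.12, adjusted p = 0.000735). The 4 higher pericentral markers numbered 2 when any of control replicates 1, 4, 5 and 6 or of DC371739 replicates 3, 5 and 6 was left out. The 2 lower periportal ones numbered 1 without any library except control replicate 4 or DC371739 replicate 5.

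Urea cycle and amino acid genes had 8 of 30 lower (26.7%, near the 23% of all genes) and 2 higher (6.67%, against 21.9%). Cbs, of transsulphuration, stood at 123, 82.5 and 86.9 CPM against 134, 178 and 236 CPM (-0.90, SE 0.13, adjusted p = 2.92e-05). Nags, which makes the activator of the urea cycle (-0.54), Bckdha, of branched-chain breakdown (-0.64), and the proline-pathway gene Prodh2 (-0.82) lay below all other libraries. Secreted plasma proteins were split, 4 of 20 higher (20%) and 5 lower (25%), near the 21.9% and 23% of all genes. With library totals alone 3 were higher and 9 lower. Plasminogen, encoded by Plg (-0.70), Fetub (-0.68) and prothrombin, encoded by F2 (-0.59), fell with no overlap. Itih2, of the inter-alpha-trypsin inhibitor family, rose (0.40).

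**Figure D4:**
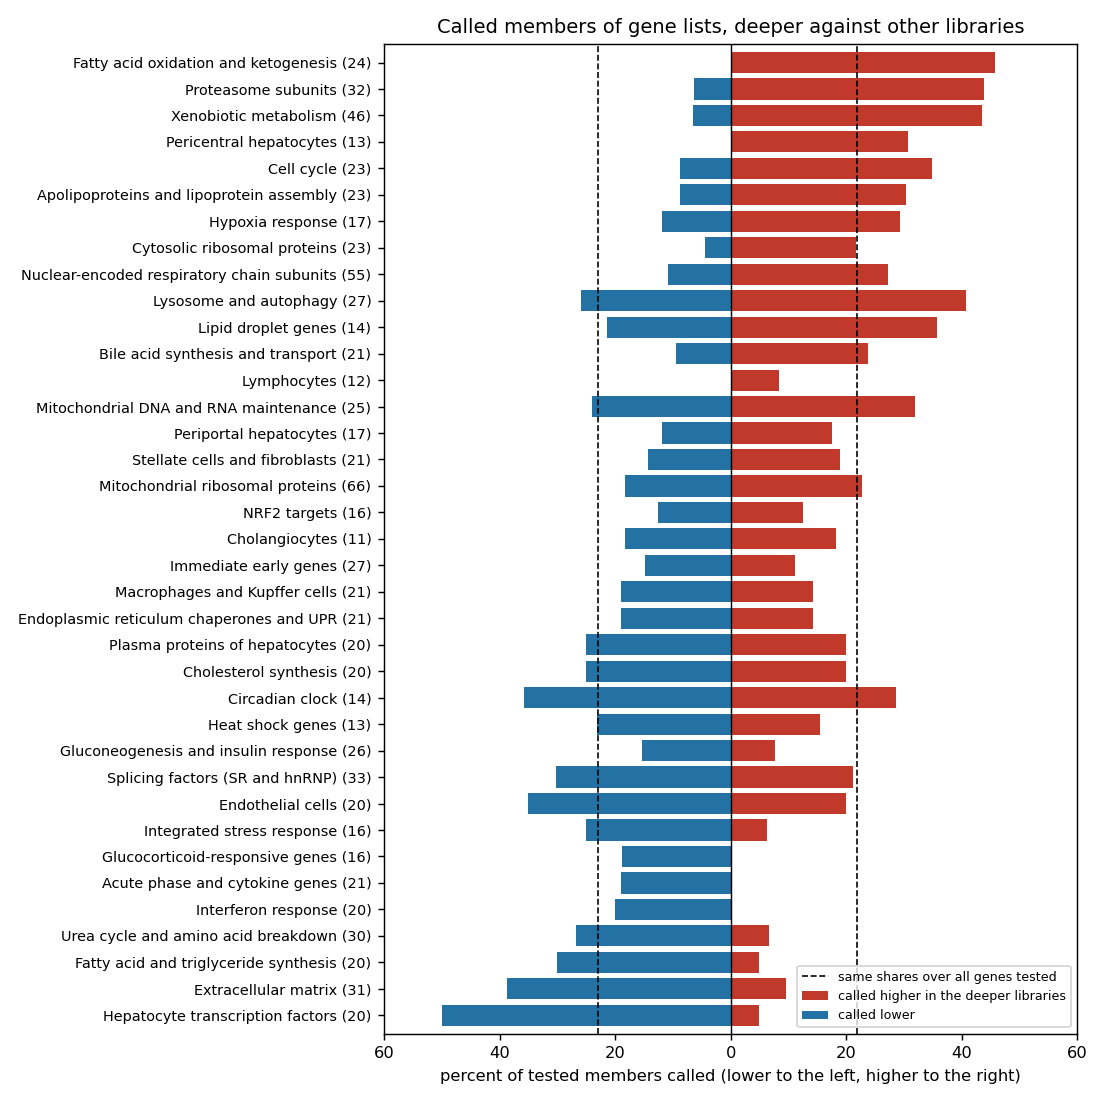
Percent of tested members (number in brackets) called higher (red, to the right) or lower (blue, to the left) in the deeper libraries, for each nuclear list with at least 10 tested members. Dashed lines mark the shares over all genes, 21.9% higher and 23% lower. Fatty acid oxidation, proteasome and xenobiotic genes reach furthest right (43.5% to 45.8%) and hepatocyte transcription factors furthest left (50%).

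Clock genes follow the hour of the day in liver, and immediate early genes answer a stimulus quickly. Of 14 clock genes 4 were higher (28.6%, against 21.9% of all genes) and 5 lower (35.7%, against 23%). The lower ones numbered 3 without control replicate 6 or 7. With library totals alone 2 were higher and 5 lower. Clock stood at 5.83, 6.68 and 4.39 CPM against 0.916, 1.43 and 2.59 CPM (1.80, SE 0.28, adjusted p = 6.23e-05), with no overlap. Dbp, an output gene, rose by 1.01 (adjusted p = 0.000752), while Arntl (-0.99, adjusted p = 0.00297) and Cry1 (-1.21, adjusted p = 0.00484) fell. The ranges of Dbp, Arntl and Cry1 overlapped between the groups. Without the treatment term Arntl and Cry1 did not pass (adjusted p = 0.11 and 0.163).

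Of 27 immediate early genes 3 were higher (11.1%) and 4 lower (14.8%), both under the 21.9% and 23% of all genes. Fos stood at 111, 32.2 and 30.5 CPM against 2.05, 14.4 and 41.6 CPM (1.77, SE 0.59, adjusted p = 0.0281) and lost its call when control replicate 6 (0.155) or DC371739 replicate 7 (0.137) was left out. The higher genes numbered 0 without either of these libraries and 5 without control replicate 4 or 7. The lower ones numbered 2 without control replicate 1 or 5 and 0 without control replicate 7. With library totals alone 1 was higher and 6 lower.

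Inflammatory lists held no called rise, and their shares of lower genes were at or under the 23% of all genes. Their medians nevertheless lay below that of all genes (-0.0047). Acute phase and cytokine genes had 4 of 21 lower (19%), with a median log2 difference of -0.51. The lower ones numbered 9 without DC371739 replicate 4, 2 without DC371739 replicate 7 and 11 with library totals alone. Interferon response genes had 4 of 20 lower (20%), with a median of -0.33. The lower ones numbered 2 without control replicate 6 or 7. Icam1, an adhesion molecule, stood at 32.8, 42.6 and 41.6 CPM against 51.3, 68.2 and 99.5 CPM (-0.71, SE 0.12, adjusted p = 0.000142). Stat2, a transducer of type I interferon, stood at 38.0, 43.5 and 32.7 CPM against 55.4, 64.5 and 96.1 CPM (-0.91, SE 0.16, adjusted p = 0.000198), and its partner Irf9 fell by 0.38 on the log2 scale. None of these 3 genes overlapped between the groups.

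Gene structure went along with the direction of the difference. Mean intron length was computed from the exon coordinates of the count table for 12344 genes with more than 1 exon block, and genes were divided into 5 equal classes. In the class with the shortest introns (up to 783 bases) 7.33% were higher and 41.2% lower, with a median log2 difference of -0.28. In class 4 (2691 to 5049 bases) 31.1% were higher and 14.8% lower, and in the class with the longest introns (5050 bases and more) 27.7% and 12.9%, with a median of 0.15. A smooth trend on intron length held 8.86% of the variance of the log2 difference across genes. By summed exon length both shares were higher in the longest class than in the shortest, 26.9% against 18.1% for higher and 29.3% against 14% for lower genes, with medians between -0.06 and 0.05. Of 334 tested genes with 1 exon block 9.58% were higher and 19.2% lower. All nuclear genes of the table with 1 exon block took 0.3995% to 0.432% of the counts in the deeper libraries and 0.456% to 0.541% in the others.

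Subtracting this trend left the medians of many lists on their side of 0. They were 0.24 for fatty acid oxidation, 0.31 for xenobiotic metabolism, 0.27 for the proteasome, -0.32 for fatty acid synthesis, -0.34 for hepatocyte transcription factors and -0.33 for extracellular matrix. Lists with less called members kept their side too, among them cell cycle (0.64), immediate early (0.48), cholesterol synthesis (0.27), acute phase (-0.31) and interferon genes (-0.22). Cytosolic ribosomal proteins, whose introns are short (a median of 469 bases), went from 0.05 to 0.34. Medians near 0 changed sign, among them those of mitochondrial maintenance (-0.03 to 0.12), plasma proteins (-0.07 to 0.07), endothelial (-0.01 to 0.05) and stellate markers (-0.01 to 0.01). What in the libraries goes with intron length was not tested, and base composition was not analysed here.

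Genes that are neighbours on a scaffold had more similar differences than distant ones. Pearson's correlation of the log2 difference between adjacent tested genes was 0.318 over 11725 pairs, a median of 24 kb apart, and 0.099 over 4562 pairs that were 50 genes apart. For the treatment coefficient of the same fit the values were 0.088 and 0.019. These are correlations across genes, which share libraries and are not independent replicates, and they are given as a description.

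**Figure D5:**
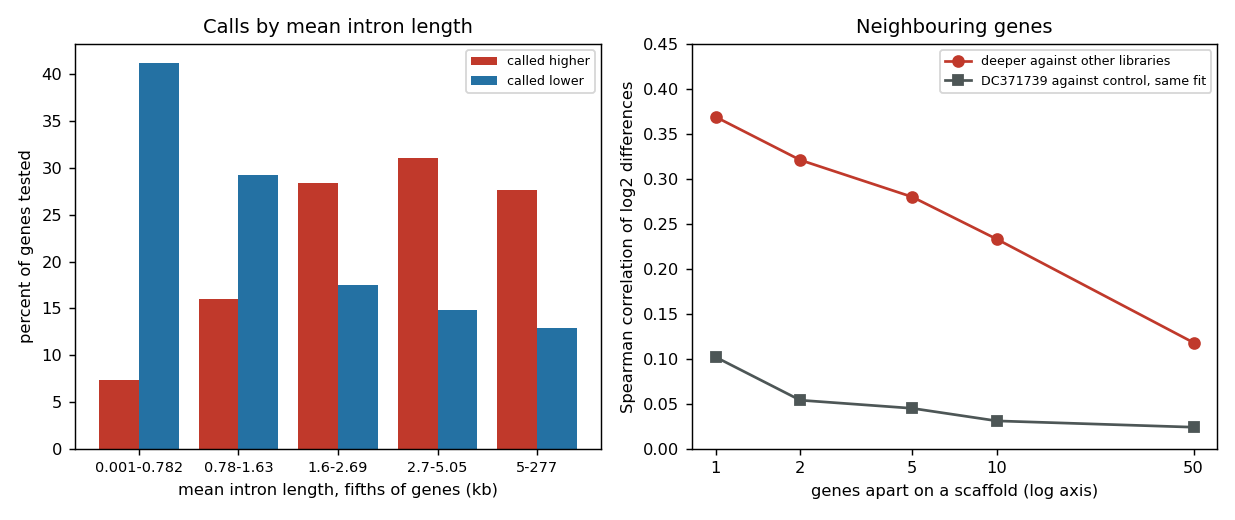
Left, percent of tested genes called higher (red) or lower (blue) in the deeper libraries by class of mean intron length in kb; lower calls drop from 41.2% to 12.9%. Right, Spearman's correlation of the log2 difference between genes a given number of tested genes apart on a scaffold (log axis), for the deeper libraries against the others (circles, from 0.369 to 0.118) and for DC371739 against control in the same fit (squares, from 0.102 to 0.024).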

How the data were processed

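Counts per Ensembl gene, whole numbers, were made by the authors and deposited as 1 table, with exon coordinates and summed exon length per the file headers; HISAT2 2.2.1, featureCounts 2.0.0 and edgeR were used per the submitters' processing notes. The sources used here do not give the order of steps, settings, genome build, annotation or strand. The deposited FPKM table, from which symbols of 10023 genes were taken, equals the authors' counts per gene length within a relative deviation of 1.3e-07. Reads of overlapping, antisense or near-identical genes cannot be told apart.

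Libraries with over 20000000 counts were compared with the others in edgeR 4.0.16 (R 4.3.3) by the quasi-likelihood test, with treatment as a covariate, TMM scaling, robust dispersions and edgeR's expression filter (minimum count 10). An adjusted p (Benjamini-Hochberg) under 0.05 over all genes tested was called. A standard error is the log2 difference divided by the square root of F. CPM are counts per 1000000 of TMM-scaled library size; log2 CPM used a prior count of 2. Control libraries alone and an interaction with treatment were fitted likewise. The comparison of deeper with other libraries was also run on simulated counts. These were drawn for each gene independently, with far fewer changed genes than were called here. That run therefore cannot show how reliable the calls in these libraries are.

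The libraries, gene lists and tests were chosen with earlier results of these data known. Named genes are all mitochondrial features; the 12 largest rises and falls with a symbol, an adjusted p under 0.05 and mean log2 CPM of at least 1; the 4 list members of smallest p; the largest without a symbol; and single genes fixed by name. Acadm, Acly, Foxa3, Col1a1, Col4a1 and Ppargc1a were named after their values were seen; a few genes that the rule names are not reported here. Totals ranged from 13672589 to 23948628 counts, and intervals were not computed for counts this deep. All 42 pairs of libraries within a treatment group differed by more than sampling noise (chi-square divided by its degrees of freedom at least 11.2). Alternatives were other scalings, filters and tools (DESeq2 1.42.0, limma-voom in limma 3.58.1), thinning, no treatment term, a replicate block and each library left out; intron length and neighbouring genes were added after seeing the data.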

Additional observations from a re-analysis of the deposited data

Results flagged for a closer look

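Within the other libraries of 1 treatment group, 17 of 298 groups of values held a library far from the rest; by chance about 1 in 20 groups do. A high value set control replicate 2 apart for Phip (3.36 CPM), Extl1 (76.2), Tmem25 (139), Nlrp6 (5.19) and Fetub (4666), and a low one for Hgf (19.8 CPM). Control replicate 3 was high for mt-ATP8 (537 CPM) and low for Tbrg4 (33.9). Control replicate 4 was high for Dnm1 (6.85 CPM) and Gpam (829), and control replicate 1 for Crebrf (3.43). Among treated libraries, DC371739 replicate 3 was high for Pdk4 (21.6 CPM) and low for Srebf1 (355), DC371739 replicate 4 was high for Col5a1 (76.4) and Fgfr4 (52.1), DC371739 replicate 6 was high for Stat2 (96.1), and DC371739 replicate 1 was high for ENSMAUG00000001917 (10.8). The class difference of 2 genes differed between treated and control libraries by the interaction test, Klhdc4 (-2.61) and Polr2i (1.45); the treated side of both is 1 library.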

How the results depend on the processing

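The count of 5703 genes called in the deeper libraries stayed within 1.5 times under other scalings, filters, tools, thinning and no treatment term (5146 without that term to 5966 with DESeq2) and with each library left out (4429 without control replicate 6 to 5742). When an absolute log2 difference over 1 was also required it was 838, the control count of 4860 was 1099 and the treated-side count of 3421 was 673. Leaving out single libraries gave 2881 to 4869 in the control libraries alone, 2164 to 3567 on the treated side and 0 to 9 for the difference by treatment, which DESeq2 put at 97. Library totals alone moved the higher share of calls from 48.8% to 32.5%. A block on the replicate number left 1 gene, ENSMAUG00000002214 (2.24, adjusted p = 0.0461), because both replicates numbered 7 are deeper and the class difference then rests on the replicates numbered 6. Deviations of same-numbered libraries correlated between -0.591 and 0.138 and no library matched its own number best. No pairing by number was thus seen, though so few pairs cannot exclude one. Under the block Cyp7a1, not called, turned from 0.31 to -0.99. Over the named genes and all alternatives 3663 values kept direction and call, 188 lost the call, 9 gained it and 1 turned. Depth limits genes with few counts, and its part in the lost calls of Dnm1 and Npas4 was not tested. The deeper treated library has no replicate.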

Other observations

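Splicing factors, outside the lists described above, had 7 of 33 genes higher (21.2%) and 10 lower (30.3%), against 21.9% and 23% of all genes. With library totals alone 6 were higher and 14 lower. Srrm2, a large scaffold of nuclear speckles, stood at 223, 229 and 228 CPM in the deeper libraries against 347, 414 and 539 CPM (lowest, median, highest) in the other 11 (-0.90, SE 0.11, adjusted p = 8.23e-06), and Clk2, a kinase of SR proteins, fell by 0.74 on the log2 scale. Of 27 lysosome and autophagy genes 11 were higher (40.7%) and 7 lower (25.9%). The higher ones numbered 7 without control replicate 7, and with library totals alone 7 were higher and 8 lower. The enzymes Hexa (0.67) and Lipa (0.64) lay above all other libraries, while Tfeb, the activator of lysosomal genes (-0.91), and the autophagy lipid scramblase Atg9a (-0.90) lay below them. Of 23 cell cycle genes 8 were higher (34.8%) and 2 lower (8.7%), the higher ones 4 without DC371739 replicate 7. Rrm1, of ribonucleotide reductase (0.81), and the replication clamp Pcna (0.66) lay above the other 11. The lower ones numbered 0 without control replicate 6 and 1 without control replicate 7 or DC371739 replicate 7.

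Heat shock genes had 2 of 13 higher (15.4%) and 3 lower (23.1%), against 21.9% and 23% of all genes. Their activator Hsf1 (-0.79) and the co-chaperone Bag3 (-0.95) lay below all other libraries. The higher genes numbered 1 without control replicate 6 or 7 or DC371739 replicate 7. Endoplasmic reticulum genes had 3 of 21 higher (14.3%), Canx among them (0.54), and 4 lower (19%), Syvn1 among them (-0.72). The lower ones numbered 1 without control replicate 6 or 7, and the higher ones 5 without DC371739 replicate 7. Integrated stress response genes had 1 of 16 higher, or 0 without control replicate 6, and 4 lower (25%), with a median of -0.32. Glucocorticoid-responsive genes had none of 16 higher and 3 lower (18.8%), or 1 without control replicate 6 or DC371739 replicate 7. Zinc finger genes with a Zfp symbol, a list chosen after seeing the data, had 49 of 186 higher (26.3%) and 49 lower (26.3%). With library totals alone 38 were higher and 62 lower.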
